A study of Homo sapiens with 4 samples.

Results

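The 10 genes described here encode adaptors and kinases of the focal adhesion. They are TLN1, VCL, PXN, ZYX, ILK, PARVA, PTK2, SRC, BCAR1 and CAV1, and they were taken as a list by symbol from the 60564 gene identifiers of the count files. All 10 passed the filter on low counts, as did 22555 genes in all. Focal adhesions are the sites at which integrins, the transmembrane receptors for extracellular matrix, are coupled to the actin cytoskeleton. Talin and vinculin carry the mechanical link, ILK and the parvins form a scaffold beside it, and FAK (encoded by PTK2), SRC and p130Cas (encoded by BCAR1) turn adhesion into tyrosine phosphorylation signals. Paxillin and zyxin are adaptors of these sites, and caveolin-1 coats the membrane pits called caveolae and is a SRC substrate.

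RNA-seq was performed on Elf1 cells, a single human embryonic stem cell (ESC) line described as naïve, in 2 culture conditions with 2 biological replicates each. The 2-D grown cells adhered to plastic plates coated with Matrigel, a basement membrane extract. The 3-D grown cells were dissociated to single cells, enclosed in a self-assembling polyethylene glycol scaffold of PEG-8-SH and PEG-8-Acr, and kept there for 21 days. All cells received ESC expansion medium, which per the methods held FGF2, CHIR99021, PD03296501 and LIF, and had been maintained on mouse feeder cells before a feeder-free passage. Bulk RNA was measured, so fewer cells of a type and less RNA per cell cannot be told apart. Matrix, stiffness, time in culture and dissociation changed together, and their parts in any difference cannot be told apart.

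Total counts ranged from 30114220 to 33833778 for 2-D grown cells and from 18276147 to 21154409 for 3-D grown cells, so depth and condition cannot be told apart. Scaling by TMM (a trimmed mean of ratios between libraries) also moved with condition, with factors of 1.02 and 1.03 in 2-D and 0.97 and 0.98 in 3-D. Scaled by library size only, the median log2 fold change of all tested genes was -0.06 in place of -0.00. Of the core pluripotency markers, LIN28A was the highest, at 1721 to 1812 normalized CPM (counts scaled to a common library size), and the summed level of 6 naïve markers was 53.7 to 57.6 CPM. Of these TFCP2L1 was the highest, at 22.1 to 23.8 CPM, and DPPA5 the lowest, at or below 0.130 CPM. The summed level of 9 fibroblast markers was 542 and 534 CPM in 2-D and 553 and 604 CPM in 3-D. Of the 7 tested fibroblast markers, 4 were called higher in 3-D, beside 4.54% of all tested genes. DCN and LUM were under 1 CPM in every library. The part of such cells in the results below was not tested.

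Of the 10 genes, 6 were higher in 3-D grown cells (ZYX, BCAR1, ILK, CAV1, PXN and TLN1) and 0 were lower at an adjusted p below 0.05 in edgeR's quasi-likelihood test. Over all tested genes 7.9% were called, 4.54% higher and 3.36% lower. The differences were small, from 8.86% for TLN1 to 18.6% for ZYX. The median log2 fold change of the 10 genes was 0.13, beside -0.00 for all tested genes, and 9 of the 10 values were positive. For 8 genes the libraries of the conditions did not overlap, which held for 50.5% of all tested genes. At an unadjusted p below 0.05, 7 of the 10 were higher and 1, PTK2, was lower, beside 11.1% and 10.2% of all tested genes. Focal adhesion genes were singled out by the study from these same libraries, so this count is not independent evidence of a direction.

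The number of genes called depended on the method. With DESeq2, 1 gene (ZYX) was called higher and 0 lower, and with edgeR's likelihood ratio test 2 were called higher (ZYX and BCAR1) and 0 lower. With library size only, ZYX and BCAR1 were called higher and PTK2 lower. With offsets for length and GC content, ZYX and CAV1 were called higher and 0 genes lower. Without 2-D replicate 1 only ZYX and ILK were called, and without 2-D replicate 2 only ZYX and BCAR1. Without 3-D replicate 1 the same 6 genes and VCL were called, and without 3-D replicate 2 the same genes except ILK. ZYX was the only gene of the 10 called under all 13 alternatives.

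**Figure D1:**
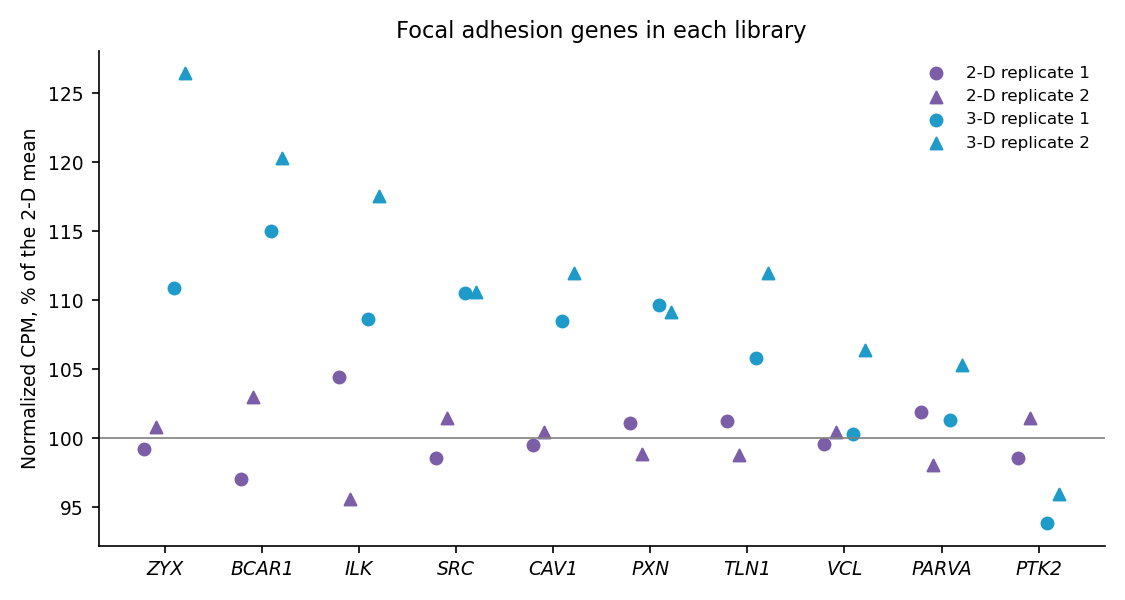
Normalized CPM of each gene in each of the 4 libraries, as a percentage of the gene's 2-D mean (grey line at 100). Purple points are 2-D and blue points 3-D libraries, with circles for replicate 1 and triangles for replicate 2. Both 3-D points lie above both 2-D points for 7 genes and below them for PTK2, and the conditions overlap for VCL and PARVA.

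The bases just upstream of the annotated gene start are given for ZYX, CAV1 and TLN1, which stand for genes called under every alternative, called also with GC offsets, and called without but not with them. They were taken from RefSeq promoter windows (GRCh38.p14) and are written 5′ to 3′ on the strand of the gene. Capitals mark the GC box GGGCGG or its reverse complement CCGCCC. ZYX: chr7:143381095-143381294, plus strand, 200 bases. CAV1: chr7:116524759-116524993, plus strand, 235 bases. TLN1: chr9:35732196-35732445, minus strand, 250 bases.
ZYX: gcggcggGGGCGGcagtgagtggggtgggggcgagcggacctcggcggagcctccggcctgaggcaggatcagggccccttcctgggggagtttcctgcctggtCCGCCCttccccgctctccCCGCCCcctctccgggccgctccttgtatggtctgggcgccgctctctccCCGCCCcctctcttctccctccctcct
CAV1: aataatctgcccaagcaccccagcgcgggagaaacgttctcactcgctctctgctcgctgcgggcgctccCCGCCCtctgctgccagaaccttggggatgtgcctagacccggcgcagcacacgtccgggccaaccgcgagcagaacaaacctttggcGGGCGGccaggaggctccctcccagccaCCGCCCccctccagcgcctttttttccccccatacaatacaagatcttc
TLN1: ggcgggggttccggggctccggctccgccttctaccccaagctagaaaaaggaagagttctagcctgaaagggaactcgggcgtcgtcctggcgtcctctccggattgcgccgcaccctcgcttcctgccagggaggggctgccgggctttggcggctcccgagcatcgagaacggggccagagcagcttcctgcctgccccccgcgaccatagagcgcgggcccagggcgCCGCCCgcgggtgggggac

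These stretches hold 4 GC boxes in ZYX, 3 in CAV1 and 1 in TLN1, and their GC content was 74.5%, 64.3% and 70.8%. Windows of 250 bases before to 50 bases after a start were searched for 7 of the genes. PARVA and SRC had no window, and PTK2, the gene with a negative log2 fold change, was left out of the search by choice. A GC box on either strand was found in 12 of the 14 windows of these 7 genes, and in 45% of 35116 windows of all genes. Some of the 7 genes had several windows, so the 14 are not independent. The CArG box, the element bound by serum response factor (SRF), was found in 0 of these 14 windows and in 1.29% of all windows. No match says only that these letters are not in the window.

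Talin-1 (TLN1; chr9:35696948-35732195, minus strand) binds the integrin β tail, activates the receptor and holds actin. Its normalized CPM was 266 and 259 in 2-D, against 278 and 294 in 3-D. The conditions did not overlap, and the 3-D libraries lay farther apart than the 2-D libraries. The log2 fold change of 3-D over 2-D was 0.12 (SE 0.03, edgeR adjusted p = 0.0482), just past the threshold. It was 0.04 with offsets for length and GC content and 0.08 without 3-D replicate 2.

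Vinculin (VCL; chr10:73995193-74121363, plus strand) binds talin under load and reinforces its hold on actin. VCL had the highest level of the 10 genes, at 607 and 612 CPM in 2-D and 612 and 648 CPM in 3-D. The first 3-D library lay within the 2-D range and only the other lay above it. Its log2 fold change was 0.05 (SE 0.03, 95% interval -0.03 to 0.12, edgeR adjusted p = 0.476). Without 3-D replicate 1 it was 0.09 and called (edgeR adjusted p = 0.0138), without 3-D replicate 2 it was 0.01, and with library size only it was -0.02. The upper bound of that interval is a level 8.74% above 2-D.

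Paxillin (PXN; chr12:120210439-120265771, minus strand) is the adaptor that docks FAK, vinculin and parvins. Its CPM was 198 and 194 in 2-D and 215 and 214 in 3-D, with replicates close together and the conditions apart. This gave a log2 fold change of 0.13 (SE 0.03, edgeR adjusted p = 0.0193), and 0.04 with offsets for length and GC content (edgeR adjusted p = 0.522).

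Zyxin (ZYX; chr7:143381295-143391111, plus strand) is a LIM protein that gathers at adhesions and stress fibers under tension and recruits VASP and ENAH. It showed the largest change of the 10 genes. Its CPM was 158 and 160 in 2-D and 176 and 201 in 3-D, means of 159 ± 1.76 and 189 ± 17.5 (SD, n = 2). Both 3-D libraries lay above both 2-D libraries, but they differed from each other by more than the lower of them differed from 2-D. The log2 fold change was 0.25 (SE 0.05, 95% interval 0.14 to 0.35, edgeR adjusted p = 0.00746). Leaving out 3-D replicate 2 gave 0.15 and leaving out 3-D replicate 1 gave 0.34, so its size rests on which 3-D library is kept, and it was called in each case.

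Integrin-linked kinase (ILK; chr11:6603708-6610874, plus strand) is a pseudokinase that holds PINCH and parvin at the integrin tail. Its CPM was 70.9 and 64.8 in 2-D and 73.7 and 79.8 in 3-D. The conditions did not overlap, although the gap between them was narrower than the spread within either. Its log2 fold change was 0.18 (SE 0.05, edgeR adjusted p = 0.0492), and 0.11 without 2-D replicate 2 (edgeR adjusted p = 0.423). ILK was called in 4 of the 13 alternatives.

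α-parvin (PARVA; chr11:12377563-12535356, plus strand) is the actin-binding partner of ILK. Its CPM was 32.4 and 31.2 in 2-D and 32.2 and 33.5 in 3-D, and the conditions overlapped. Between conditions the log2 fold change was 0.05 (SE 0.06, 95% interval -0.09 to 0.18, edgeR adjusted p = 0.747), and -0.02 with library size only.

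FAK (PTK2) is the tyrosine kinase that autophosphorylates at adhesions and recruits SRC. It was the only one of the 10 genes with a negative value. Its CPM was 163 and 167 in 2-D and 155 and 158 in 3-D, with both 3-D libraries below both 2-D libraries. The log2 fold change was -0.08 (SE 0.03, 95% interval -0.14 to -0.01), with an unadjusted p of 0.0296 and an adjusted p of 0.173 in edgeR's test. With library size only the value was -0.14 (edgeR adjusted p = 0.016).

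SRC (chr20:37344685-37406050, plus strand) is the kinase that FAK recruits. Its CPM was 29.7 and 30.6 in 2-D and 33.3 and 33.4 in 3-D. The conditions did not overlap, and the 3-D libraries were nearly alike. Its log2 fold change was 0.14 (SE 0.06, 95% interval 0.01 to 0.28), of the size seen for CAV1 and PXN, but the adjusted p was 0.187 in edgeR's test at this lower count.

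p130Cas (BCAR1; chr16:75228181-75268053, minus strand) is the docking protein whose substrate domain is phosphorylated by SRC kinases when stretched. Its CPM was 48.9 and 51.9 in 2-D and 57.9 and 60.6 in 3-D, with the conditions well apart. The log2 fold change was 0.23 (SE 0.05, edgeR adjusted p = 0.00915), close to that of ZYX, and it was called in 10 of the 13 alternatives. A processed pseudogene, BCAR1P1, matches 13.3% of the longest BCAR1 transcript at 97.7% identity, so reads there are uncertain.

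Caveolin-1 (CAV1; chr7:116524994-116561179, plus strand) forms the coat of caveolae. Its CPM was 149 and 151 in 2-D and 163 and 168 in 3-D, and the gap between the conditions was wider than the spread within either. The log2 fold change was 0.14 (SE 0.03, edgeR adjusted p = 0.0141). With offsets for length and GC content it was 0.15 and still called, unlike PXN, TLN1, ILK and BCAR1. CAV1 was not called with DESeq2 (adjusted p = 0.078). With library size only, CAV1 had 0.08 and was not called (edgeR adjusted p = 0.173).

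**Figure D2:**
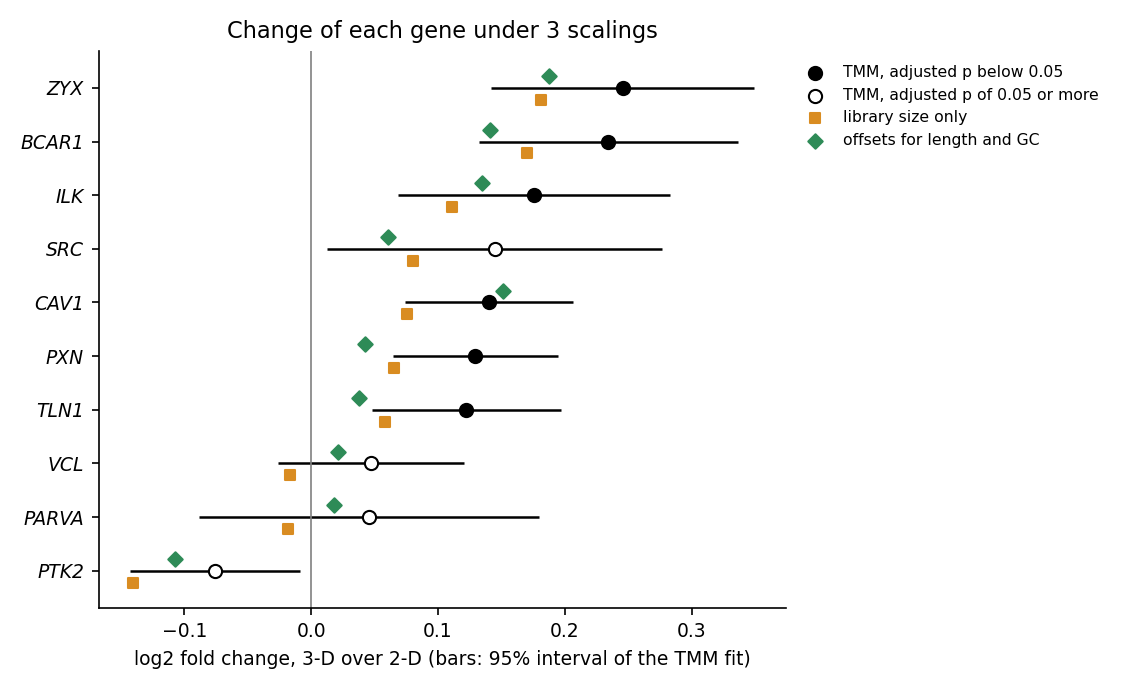
Log2 fold change of 3-D over 2-D for each gene. Circles and bars are the TMM fit with its 95% interval (filled where the adjusted p is below 0.05), orange squares the values scaled by library size only and green diamonds those with offsets for length and GC content. Each square lies left of its circle, by about the 0.06 that separates the scalings, and the diamonds of PXN and TLN1 fall to 0.04 whereas that of CAV1 stays at 0.15.

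GC content differed among the genes. GC was taken over the longest annotated transcript of each gene. TLN1, PXN, ZYX, ILK, SRC and BCAR1 had 56.0% to 63.7%, and VCL, PARVA, PTK2 and CAV1 had 42.6% to 45.1%. Of the 6 called genes, 5 were in the GC-rich group. Among 4175 tested protein-coding genes with at least 55% GC, 8.50% were called higher and 1.75% lower, with a median log2 fold change of 0.06. Among 2315 genes with 42% to 46% GC, 4.41% were called higher and 5.18% lower, with a median of -0.01. With the offsets, the median of the 10 genes was 0.05.

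Of the 10 genes, 4 overlap the exons of a tested neighbor on the opposite strand. ILK shares 68.1% of its exon length with TAF10, a TFIID subunit. TAF10 had 39.7 and 36.0 CPM in 2-D and 41.3 and 44.2 CPM in 3-D, and its log2 fold change of 0.17 (edgeR adjusted p = 0.122) was close to that of ILK. The ratio of ILK to TAF10 counts was 1.78, 1.80, 1.78 and 1.80 in the 4 libraries, a coefficient of variation of 0.573% beside a counting error of 3.38% to 4.43%. PXN and its antisense RNA PXN-AS1 (23.7% of PXN's exon length) likewise held ratios of 2.01, 2.03, 1.99 and 1.99 (coefficient of variation 0.838%, under the counting error of each library). PXN-AS1 was called higher too, with 0.15 on the log2 scale (edgeR adjusted p = 0.0131). VCL shares 11.1% of its exon length with AP3M1, whose log2 fold change was 0.02 (edgeR adjusted p = 0.856), and ZYX shares 2.51% with EPHA1, with 0.13 (edgeR adjusted p = 0.116). The ratio of VCL to AP3M1 counts had a coefficient of variation of 2.31%, within its counting error of 2.02% to 2.77%, and that of ZYX to EPHA1 one of 4.82%, beside 2.35% to 2.99%. The strand setting of the counting is not given in the sources used here. BCAR1 shares 8.57% of its exon length with an unnamed transcript on its own strand. If the counting did not use strand, reads of ILK and TAF10, or of PXN and PXN-AS1, cannot be told apart.

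**Figure D3:**
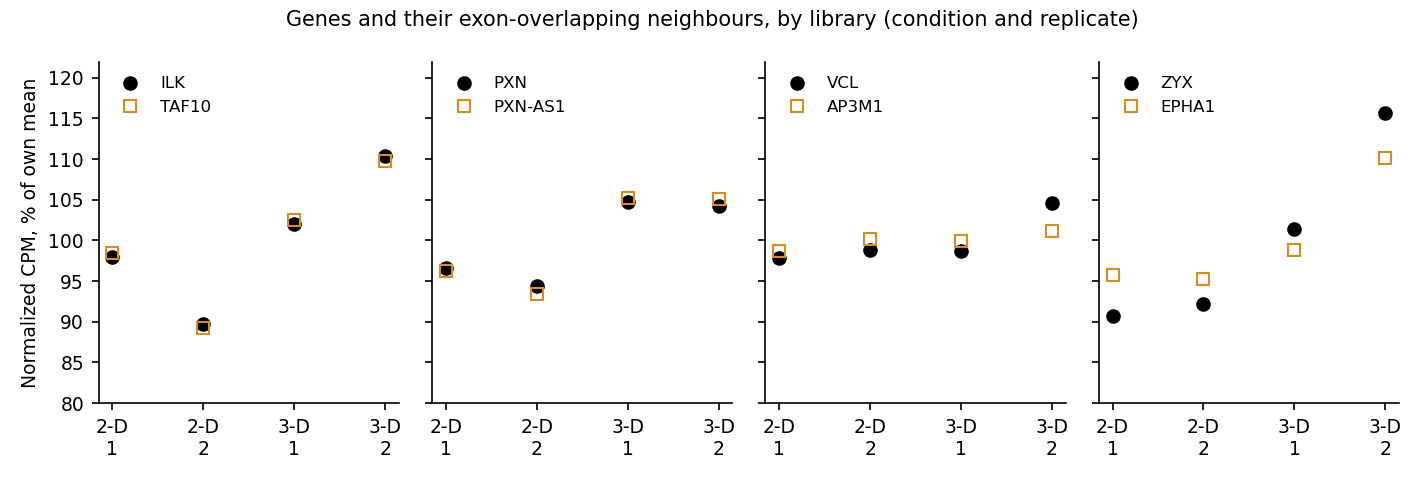
Normalized CPM of ILK, PXN, VCL and ZYX (black circles) and of the neighbor that overlaps their exons (orange squares) in each library, as a percentage of the gene's own mean over the 4 libraries. The squares lie on the circles for ILK with TAF10 and for PXN with PXN-AS1, differ from them by no more than counting error for VCL with AP3M1, and part from them for ZYX with EPHA1.

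Levels were compared between genes as normalized CPM per kb of exon. Averaged over the 4 libraries, VCL (62.0) and ZYX (53.2) were the highest, followed by CAV1 (40.8). The ranges of VCL and ZYX over the 4 libraries overlapped, but VCL was the higher within each library. TLN1 (27.6) and PXN (27.5) did not differ beyond their spread. Below them came ILK (20.8), PTK2 (11.7), BCAR1 (5.96), SRC (4.45) and PARVA (2.59), each clear of the next. The highest mean level was 23.9 times the lowest. Exon lengths are unions over all annotated transcripts of a gene, used or not in these cells.

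The genes and their paralogues were compared by RNA level, as shares of each family's summed level per kb. Talin-1 made up 89.8% to 90.8% of the summed talin level per kb over the 4 libraries. Paxillin made up 94.1% of its family in 2-D and 94.6% in 3-D, and FAK 96.8% and 96.6% of FAK plus PTK2B. SRC itself was a minor member of its family, with 6.44% in 2-D and 7.28% in 3-D. YES1 was the main member, at 39.8 CPM per kb and 62.4% and 60.4% of the level, ahead of LYN and FYN (11.0 and 7.95 CPM per kb). ZYX held 56.7% ± 0.0834 of the zyxin family level in 2-D and 62.0% ± 1.56 in 3-D (SD, n = 2), while TRIP6 went from 32.4% to 28.1%. BCAR1 held 54.6% and 57.8% of its family, with EFS as the other main member, and PARVA 65.6% and 66.9%. CAV1 held 88.4% and 89.0% of the caveolins.

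Of the paralogues, 14 were tested and 0 were called in edgeR's test, beside 7.9% of all tested genes. With 14 genes, 0 is near that share. Their log2 fold changes were -0.09 for TRIP6, -0.08 for YES1 and LPXN, -0.05 for LYN, -0.04 for PARVB, -0.00 for LPP, 0.02 for TGFB1I1, 0.04 for PTK2B and EFS, 0.06 for NEDD9 and CAV2, 0.07 for TLN2, 0.08 for FYN and 0.14 for LCK. At an unadjusted p below 0.05, YES1 and TRIP6 were lower, beside 10.2% of all tested genes. The differences between ZYX and TRIP6 or between SRC and YES1 were not tested. CAV3, PARVG, FGR, BLK and CASS4 had too few counts to test.

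**Figure D4:**
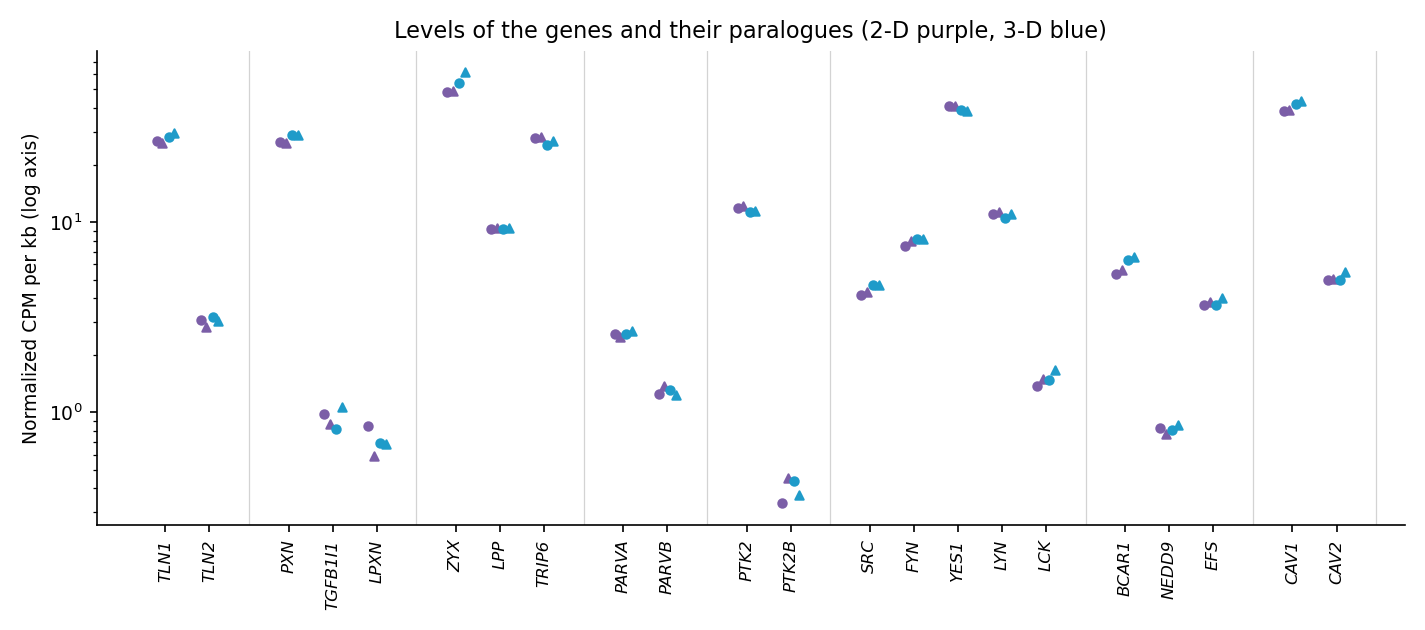
Normalized CPM per kb of exon (log axis) of 8 of the genes and their tested paralogues, family by family, in each library (purple 2-D, blue 3-D, circles replicate 1 and triangles replicate 2). YES1 lies far above SRC, and TLN1, PXN, PTK2 and CAV1 lie far above their paralogues.

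The other genes of the adhesion were described from lists by role, 106 genes in all, of which 95 were tested, 10 called higher and 0 lower, beside 4.54% and 3.36% of all tested genes. At an unadjusted p below 0.05, 21 were higher and 10 lower, beside 11.1% and 10.2% of all tested genes, and their median log2 fold change was 0.04. With DESeq2, and likewise with the likelihood ratio test, 3 were called higher and 0 lower. With library size only, 1 was called higher and 10 lower.

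Of the 21 tested integrins, only ITGB1, the β1 chain shared by many matrix receptors, was called. Its CPM was 519 and 515 in 2-D and 572 and 594 in 3-D (log2 fold change 0.17, SE 0.03, edgeR adjusted p = 0.00485). ITGB1 was called in 12 of the 13 alternatives, the list median was 0.08, and 1 of 21 is near the 4.54% over all tested genes. Of the 11 tested genes of integrin activation, which include kindlins and RAP1, KANK1, a talin-binding protein, was called (0.16, SE 0.04, edgeR adjusted p = 0.0204). In the complex of ILK, PINCH and parvin, RSU1, which binds PINCH, was the gene called of 5 tested. The log2 fold change of RSU1 was 0.12 (SE 0.03, edgeR adjusted p = 0.0469). LIMS1, which encodes PINCH1, had -0.17 (edgeR adjusted p = 0.0596). With 11 and 5 tested genes, 1 call each cannot be told apart from the 4.54% called higher over all tested genes. The medians of these lists were 0.07 for integrin activation and -0.04 for the complex. Under the 13 alternatives KANK1 and RSU1 were called higher in 6 each, and LIMS1 was called lower in 6.

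Among 21 actin linkers and LIM proteins, 5 were called higher, beside 4.54% of all tested genes. SORBS3 (vinexin), which binds vinculin, had 32.6 and 32.2 CPM in 2-D and 39.4 and 41.4 CPM in 3-D, a log2 fold change of 0.32 (SE 0.06). PDLIM7 had 0.22 and LASP1 0.13, and CSRP1, named after its value was seen, 0.20. The zyxin partners VASP (-0.09) and ENAH (0.10) were not called. Of 30 tested genes of FAK, SRC and CAS signaling, 2 were called higher, near the 4.54% of all tested genes. They were GIT1 (0.24, SE 0.06), which binds paxillin, and ARHGAP35 (0.11, SE 0.03), a GTPase-activating protein. GIT1 and ARHGAP35 were called higher in 7 and 5 of the 13 alternatives. Of 7 tested caveolar genes other than CAV1, 0 were called, beside 7.9% of all tested genes. With 7 genes, 0 is near that share. Of these 7, 0 had an unadjusted p below 0.05 and 0 were called by DESeq2 or the likelihood ratio test. Their values ran from -0.07 to 0.08. CAVIN1, which builds the caveolar coat with CAV1, had 0.07.

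Of 12 genes on a list of 11 cytoskeletal SRF targets and SRF itself, 8 were called higher and 0 lower, beside 4.54% and 3.36% of all tested genes. Their median log2 fold change was 0.14. MYL9, a regulatory light chain of myosin, had 123 and 118 CPM in 2-D and 144 and 147 CPM in 3-D (0.28, SE 0.03). ACTB, β-actin, had 4302 and 4322 CPM in 2-D and 5283 and 5106 CPM in 3-D (0.27, SE 0.03), whereas ACTG1, γ-actin, had -0.05 (edgeR adjusted p = 0.408). CNN1 had 0.36 and FLNA, which crosslinks actin, 0.18. With the likelihood ratio test, with library size only or with the offsets, 3 of the 12 were called higher. Without 2-D replicate 1 this was 5, without 2-D replicate 2 it was 4, and without either 3-D library it was 8. ACTG1 was called lower with library size only and without 3-D replicate 2. At an unadjusted p below 0.05, 0 of the 12 were lower in the TMM fit, and SRF had 0.06 (edgeR adjusted p = 0.317). MYL9 and ACTB were called under all 13 alternatives.

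**Figure D5:**
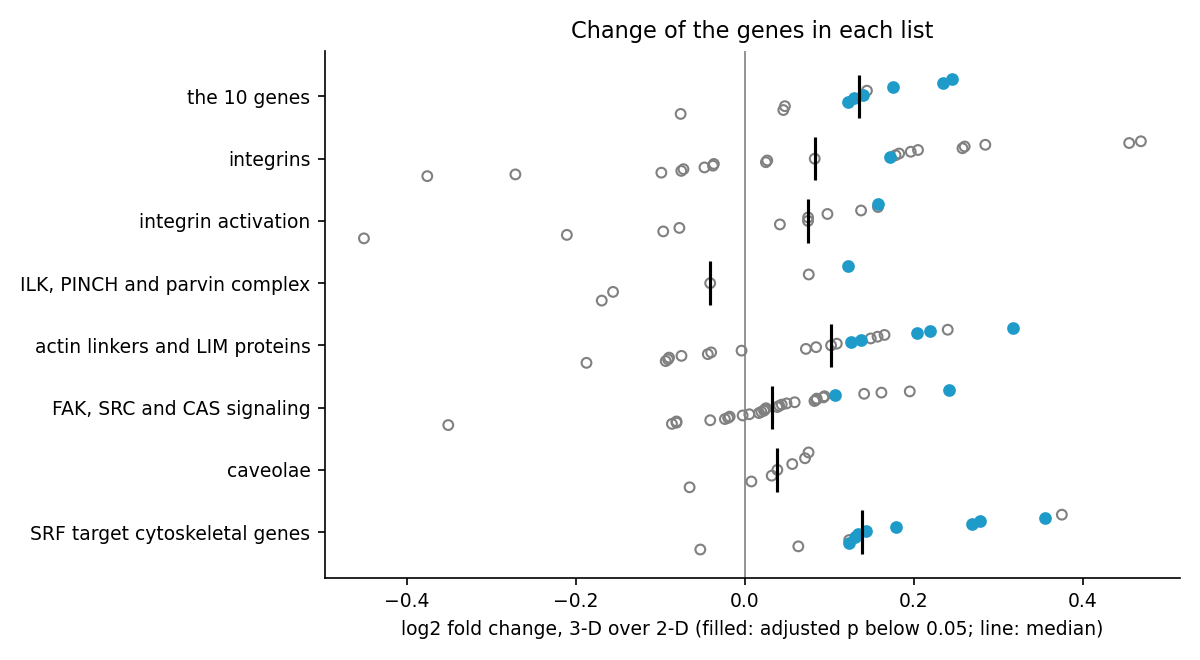
Log2 fold change of 3-D over 2-D for the tested genes of each list, with filled points called at an adjusted p below 0.05 and a black line at each list's median. Called points lie to the right of 0 in every list that has any, and the medians run from -0.04 in the ILK, PINCH and parvin complex to 0.14 in the SRF targets.

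By profile over the 4 libraries, the tested genes outside the lists nearest to the mean profile of the 10 genes were SLC19A1, ZKSCAN8 and PRUNE1. Their root mean square distances were 0.0028 to 0.0033 on the log2 scale, over 4 libraries only.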

How the data were processed

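RNA of 2-D and 3-D grown Elf1 cells was depleted of ribosomal RNA and sequenced with paired ends. The authors trimmed reads with Trim Galore 0.6.3, mapped them to hg38 with HISAT2 2.1.0 and assigned them to GENCODE release 30 genes with featureCounts 1.6.4. Raw counts of each gene were deposited library by library. A further deposited file, in which the authors scaled these counts with DESeq2 (2.11.40.6) and listed their own comparison (fold changes and p-values), was not used.

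Of 60564 identifiers, 60295 matched GENCODE release 44 (GRCh38), which gave names, positions, exon lengths and GC content. For the comparison, edgeR 4.0.16 (R 4.3.3) was used (TMM, filterByExpr, quasi-likelihood test in legacy mode, condition only, Benjamini-Hochberg adjustment over all tested genes). A call is an adjusted p below 0.05. The standard error is the log2 fold change over the square root of F. Replicates of a condition differed by more than sampling noise (chi-square per degree of freedom, 2.27 for 2-D and 3.92 for 3-D). With 2 libraries per condition, the intervals rest on a variance estimate that borrows from all tested genes. Their width is therefore not that of the 2 libraries alone. The method was also run on simulated data. The outcome is not given here, so that run is no evidence for differences as small as those reported. Near-identical copies were sought with minimap2 2.31-r1302.

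The 10 genes and all lists were chosen with earlier results of these data known. Text names the 10 genes, their paralogues, up to 4 called genes of each list with the smallest adjusted p, and the 3 genes nearest in profile; CSRP1, LIMS1, VASP, ENAH, CAVIN1, ACTG1 and SRF were named after their values were seen. Some genes of the lists are not reported here. The 13 alternatives were DESeq2 1.42.0, its size factors in edgeR, library size only, no filter, scaling without histone, ribosomal protein and mitochondrial genes, a minimum of 10 counts per library, a replicate block, the likelihood ratio test, offsets for length and GC content (splines of 5 degrees of freedom) and each library left out.

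By marker list, the genes called higher of those tested are given, and 0 were called lower in each. Core pluripotency had 0 of 5, naïve 0 of 5, primed 1 of 6 and fibroblast 4 of 7. Endoderm had 0 of 3, mesoderm 0 of 4, neural ectoderm 0 of 3 and trophoblast 0 of 4. Over all tested genes, 4.54% were called higher and 3.36% lower.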

Additional observations from a re-analysis of the deposited data

How the results depend on the processing

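The 10 genes gave 130 values under the 13 alternatives, of which 96 kept their direction and their side of the threshold, 30 lost the call, 2 gained one and 2 changed sign. The changes of sign were VCL at -0.0167 and PARVA at -0.0187 on the log2 scale with library size only. The 13 other named genes gave 169 values, of which 47 lost the call and 0 changed sign. The number of the 10 genes called higher was 6, and it was 1 with DESeq2, 2 with library size only, 2 with the likelihood ratio test and 2 with offsets for length and GC content. 1 was called lower with library size only. Their median log2 fold change of 0.13 was 0.0704 with library size only and 0.0514 with the offsets. Of the other adhesion genes, 10 higher and 0 lower became 3 higher with DESeq2 and 3 higher with the likelihood ratio test. They became 1 higher and 10 lower with library size only and 5 higher and 3 lower with the offsets, 2 lower with no filter and 1 lower with at least 10 counts in every library. Over all tested genes, 1024 higher and 758 lower became 511 and 284 with DESeq2, 651 and 488 with the likelihood ratio test and 514 and 1879 with library size only. Leaving out one library gave 2 to 7 of the 10 genes higher and 0 lower, a median of 0.11 to 0.16, 2 to 14 other adhesion genes higher and 0 to 2 lower, and 560 to 1468 genes higher and 414 to 1175 lower. The lone library was then assumed to vary like the other condition. The cause of these changes was not tested.

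The labels do not tie same-numbered libraries to a shared batch. Their deviations from the condition means correlated at -0.01 over tested genes. With 2 pairs only, this cannot show whether a batch was shared. With the replicate block, 6 of the 10 genes were called higher, and 10 other adhesion genes were higher and 1 lower. Over all genes the replicate block gave 1223 higher and 944 lower. Depth and 2 libraries per condition limit the precision of every value.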
